A study of Mus musculus with 4 samples.

Results

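The genes described here are 10 early lymphoid genes, Dntt, Rag1, Rag2, Ighm, Satb1, Notch1, Ikzf1, Tcf3, Ebf1 and Cd52, chosen by symbol from the 31053 genes of the count tables. They were measured by droplet single-cell RNA sequencing of mouse bone marrow, with 1 library for each of 4 groups. The pair of libraries compared here holds KLS cells, which lack lineage markers, carry c-Kit and Sca-1 and contain the stem cells and multipotent progenitors of blood. The control library came from Vav1-Cre/+ STAT5ab+/+ mice and the STAT5 KO library from Vav1-Cre/+ STAT5abfl/fl mice, in which Cre recombinase deletes the neighbouring genes Stat5a and Stat5b. Both groups carry Vav1-Cre, whose Vav1 promoter drives Cre in blood cells. The design text gives 4 mice of 8 to 12 weeks without saying how they were divided, and cells of different mice cannot be told apart within a library. The remaining 2 libraries hold stromal cells, called MSC here, of the same genotypes from mice of 6 to 8 weeks.

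The first lymphoid genes are switched on while a progenitor is still multipotent, in cells that carry the cytokine receptor Flt3 on their surface. Dntt encodes terminal deoxynucleotidyl transferase, which adds bases at the joints of rearranged antigen receptor genes, and Rag1 and Rag2 encode the recombinase that cuts those genes. Tcf3 and Ikzf1 encode transcription factors needed for lymphoid development, Ebf1 encodes a factor that commits cells to the B lineage, and STAT5 carries the signal of the IL-7 receptor in lymphoid progenitors.

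The libraries differed in size and depth. KLS control held 3747 barcodes and 55138419 unique molecular identifiers (UMIs, each a counted transcript molecule), and KLS STAT5 KO held 7511 barcodes and 82466835 UMIs. After filtering, 3085 control cells with a median of 15136 UMIs and 6726 KO cells with a median of 10085 UMIs were kept. The design text states 10008 sorted KLS cells, beside 11258 barcodes and 9811 kept cells in both libraries. The libraries shared cell barcodes: 393 control barcodes and 295 KO barcodes also occurred in another library of the series. A shared barcode was kept only where it held more UMIs, which removed 369 control and 261 KO barcodes with medians of 711 and 661 UMIs. Stat5a stood at 68.5 counts per 1000000 UMIs (CPM) in control and 6.74 in KO, and Stat5b at 60.8 and 4.49, so both genes were lower in the library labelled KO. All 5 KLS markers (Kit, Ly6a, Cd34, Ptprc and Flt3) were present, with summed levels of 1117 CPM in control and 970 CPM in KO. Markers of other cells were present in both libraries. The 4 granule genes of myeloid cells (Mpo, Elane, Prtn3, Ctsg) summed to 1133 CPM in control and 1875 CPM in KO, and their part in the results below was not tested.

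The genotypes were not tested against each other, since each has a single library. Ranges in parentheses are exact 95% intervals that cover counting error only, not differences between mice or preparations. Those of levels and ratios count each UMI as independent and leave out the uneven spread of UMIs over cells. A gene is called higher or lower here where the ratio of KO to control CPM passed 1.2-fold, and the share of all genes past that limit is given beside each count. Over all kept cells, 3 of the 10 genes were lower past 1.2-fold in KO (Rag1, Rag2 and Ebf1), against 17.3% of the 12074 genes that had 100 UMIs or more in the 2 libraries together. None was higher past 1.2-fold, against 11.7% of all genes. Rag1 and Ebf1 were also lower past 1.5-fold, against 5.15% of all genes. In all, 9 of the 10 had a lower level by any amount, against 51.5% of all genes, and their median log2 ratio was -0.05 beside -0.01 over all genes. Most of the 10 therefore lay close to equality, and the lower values were in the recombinase genes and in Ebf1.

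RefSeq promoter windows of the 250 bases before the start site (build GRCm38.p6) were found for 8 of the 10 genes, and those of Dntt, Rag1 and Rag2 are shown because these genes carry the main findings. Each is printed 5′ to 3′ on the strand of its gene, and capitals mark the E-box CANNTG, the short motif bound by E proteins such as the product of Tcf3. Dntt lies at chr19:41029275-41059525 on the plus strand and its window spans chr19:41029025-41029274. Rag1 (chr2:101638282-101649501, minus strand) and Rag2 (chr2:101624718-101632529, plus strand) are neighbours that point at each other across 5752 bases, in the GENCODE M21 annotation of GRCm38. The Rag1 window is chr2:101649533-101649782 and the Rag2 window is chr2:101624462-101624711.
Dntt: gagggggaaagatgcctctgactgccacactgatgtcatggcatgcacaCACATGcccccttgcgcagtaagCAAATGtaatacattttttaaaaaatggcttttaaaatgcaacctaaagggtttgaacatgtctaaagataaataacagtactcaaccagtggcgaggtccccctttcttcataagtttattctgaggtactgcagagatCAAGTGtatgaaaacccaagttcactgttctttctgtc
Rag1: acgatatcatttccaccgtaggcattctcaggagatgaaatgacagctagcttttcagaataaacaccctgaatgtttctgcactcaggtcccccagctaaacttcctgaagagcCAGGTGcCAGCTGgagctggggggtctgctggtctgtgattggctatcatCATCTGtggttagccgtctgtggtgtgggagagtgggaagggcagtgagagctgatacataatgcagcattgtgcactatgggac
Rag2: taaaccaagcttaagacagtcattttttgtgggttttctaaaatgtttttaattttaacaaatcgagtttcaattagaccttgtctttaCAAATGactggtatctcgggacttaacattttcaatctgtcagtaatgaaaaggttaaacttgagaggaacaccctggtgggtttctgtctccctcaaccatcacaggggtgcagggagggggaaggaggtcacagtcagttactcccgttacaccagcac
The Dntt and Rag1 windows hold 3 E-boxes each and the Rag2 window holds 1, while 66.2% of all 32851 RefSeq windows of this length hold at least 1. The STAT motif TTCNNNGAA, which reads the same on both strands, as the E-box does, was in 0 of the windows of the 8 genes and in 7.02% of all windows. These are matches of letters in a short window and say nothing of binding.

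Dntt had nearly the same summed level in both libraries but was spread over cells differently. Its level was 484 CPM in control (478 to 490; 24734 UMIs) and 468 CPM in KO (463 to 473; 35722 UMIs), a ratio of 0.967 (0.951 to 0.983). The counting intervals of the levels do not overlap, and the levels differed by far less than the 1.2-fold limit. These intervals count each UMI as independent, while Dntt UMIs were gathered in cells, with up to 192 in 1 control cell. Whether the difference exceeds the variation between cells was not tested. To compare shares of cells, each cell was thinned at random to 4600 UMIs, and 27 control and 658 KO cells with fewer were left out, leaving 3058 and 6068 cells. A Dntt UMI was then found in 35.6% of control cells (33.9 to 37.3) and 43.1% of KO cells (41.8 to 44.3). Without thinning the shares were 47.4% and 52.6%. The mean per thinned cell was 2.23 UMIs in control and 2.19 in KO, while each cell with Dntt held 6.26 and 5.08 UMIs. The share is higher in KO and the summed level is not, so no order of Dntt expression over all cells is read from the share.

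Cells with Flt3 were those with at least 1 Flt3 UMI after thinning, 1383 in control (45.2%, 43.5 to 47.0) and 2506 in KO (41.3%, 40.1 to 42.5). Flt3 itself stood at 169 CPM in control and 140 CPM in KO, a ratio of 0.828 (0.805 to 0.852). Dntt was concentrated in these cells in both libraries, at 859 CPM in control (847 to 872) and at 825 CPM in KO (815 to 835), a ratio of 0.960 (0.942 to 0.978). Its share was 57.6% (54.9 to 60.2) in control and 65.7% (63.8 to 67.6) in KO. The sign of the difference in the summed level depended on the setting: the log2 ratio in Flt3 cells was -0.06, and 0.09 with Flt3 cells chosen in the full counts, and over all cells it was -0.05, and 0.01 without cells that carry genes of mature lymphoid cells. In cells with no Flt3 UMI, both measures of Dntt were higher in KO. Its level there was 181 CPM in control (176 to 186) and 228 CPM in KO (223 to 232), a ratio of 1.26 (1.22 to 1.30), and its share was 17.5% (15.7 to 19.4) and 27.2% (25.7 to 28.7). In these cells 2 of the 8 genes with at least 100 UMIs, Dntt and Ighm, were higher past 1.2-fold in KO, against 11.1% of all genes, and Ighm also passed 1.5-fold, against 2.04%. The calls of Ighm ended without 4 control and 6 KO cells that carry plasma cell genes, at a ratio of 1.06. Rag2 was the 1 gene of the 8 lower past 1.2-fold there, against 16.3%. Cells with no Flt3 UMI after thinning are not cells without Flt3. Thinning leaves 45.2% of control cells with a Flt3 UMI where the full counts give 69.5%, and 41.3% of KO cells where they give 57.8%. Among the cells with no Flt3 UMI after thinning, 45.1% of control and 32.6% of KO held one in the full counts, so these sets differ between the libraries.

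Free RNA in the droplets gives UMIs in cells that do not express a gene. Cells with UMIs of at least 2 erythroid or megakaryocyte genes and no Flt3 UMI numbered 71 in control and 218 in KO, with medians of 18071 and 11405 UMIs before thinning. Dntt was found in 5.63% of them in control (1.56 to 13.8) and in 9.17% in KO (5.69 to 13.8). The shares in cells with no Flt3 UMI, 17.5% in control and 27.2% in KO, are higher, but the marked cells are among those cells. The marked cells show the same order of the libraries, with overlapping intervals. The part of free RNA in the Dntt shares was not tested.

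**Figure D1:**
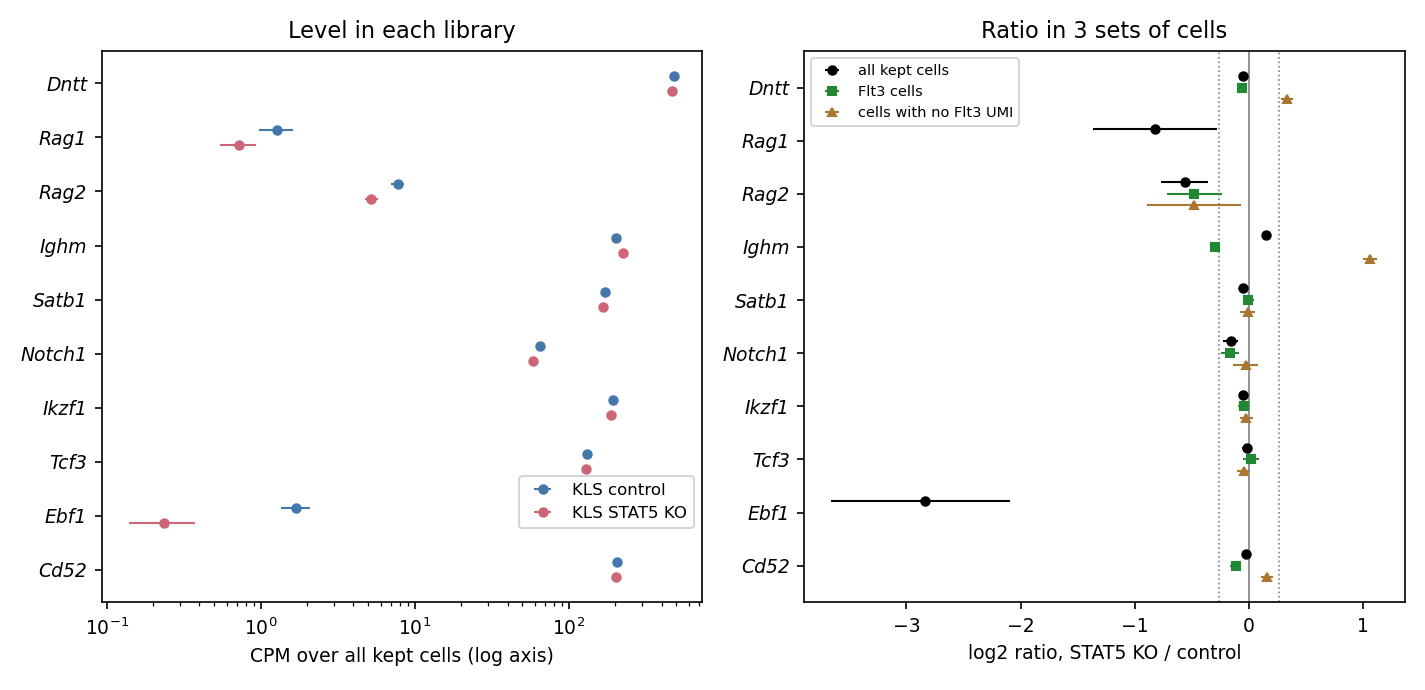
The left plot gives the level of each of the 10 genes over all kept cells (CPM, log axis) in the control and KO library with exact 95% counting intervals; the right plot gives the log2 ratio of KO to control in all kept cells, in Flt3 cells and in cells with no Flt3 UMI, for genes with at least 100 UMIs in that set, with dotted lines at 1.2-fold. Rag1, Rag2 and Ebf1 lie left of the limit over all cells, while Dntt lies near 0 over all cells and in Flt3 cells and at 0.33 in cells with no Flt3 UMI.

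The number of Dntt UMIs per thinned cell showed where the libraries differed. Among Flt3 cells, those with no Dntt UMI were 42.4% of control and 34.3% of KO. Cells with 2 to 4 Dntt UMIs were 16.6% and 21.5%, and cells with 5 to 9 were 12.3% and 16.0%. At the upper end the order was the other way: cells with 10 or more were 15.1% (13.3 to 17.1) of control and 13.2% (11.9 to 14.6) of KO, with overlapping intervals. Those cells held 64.6% of all Dntt UMIs of control Flt3 cells and 53.6% of those of KO. The KO library thus had more Flt3 cells with a few Dntt molecules and a smaller part of its Dntt RNA in the richest cells. Among cells with no Flt3 UMI, every class above 0 was larger in KO, from 7.22% and 11.1% at 1 UMI to 1.97% and 2.58% at 10 or more. The intervals overlap at 5 to 9 and at 10 or more.

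**Figure D2:**
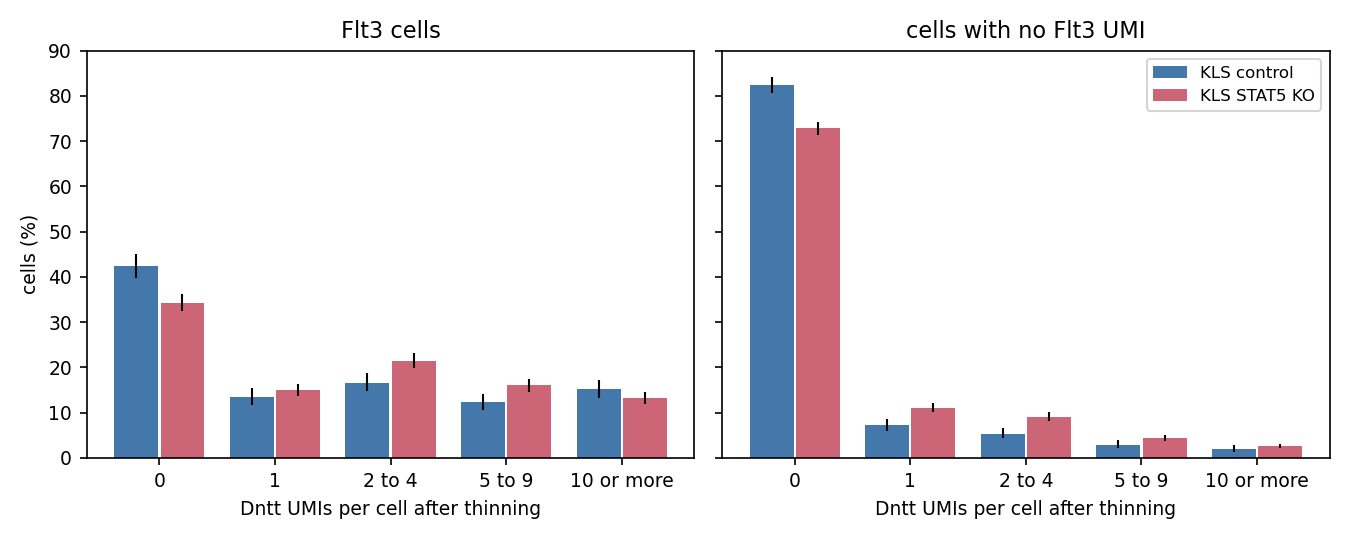
Bars give the percentage of cells with 0, 1, 2 to 4, 5 to 9 and 10 or more Dntt UMIs after thinning to 4600 UMIs, in Flt3 cells (left) and in cells with no Flt3 UMI (right) of each library, with exact 95% binomial intervals. In Flt3 cells the control library has the larger bars at 0 and at 10 or more, and the KO library has the larger bars between them.

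The share of cells with Dntt increased with the number of Flt3 UMIs in both libraries. In control it was 17.5% at 0 Flt3 UMIs, 46.6% at 1, 66.5% at 2, 71.7% at 3 to 4 and 83.3% at 5 or more. In KO the same classes gave 27.2%, 58.5%, 72.0%, 82.1% and 92.1%, so the share was the higher one in KO in every class. The Dntt level in these classes was 181, 599, 974, 1384 and 1849 CPM in control and 228, 645, 952, 1306 and 2092 CPM in KO, with no single order between the libraries. The class with 5 or more Flt3 UMIs holds only 48 control and 38 KO cells.

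**Figure D3:**
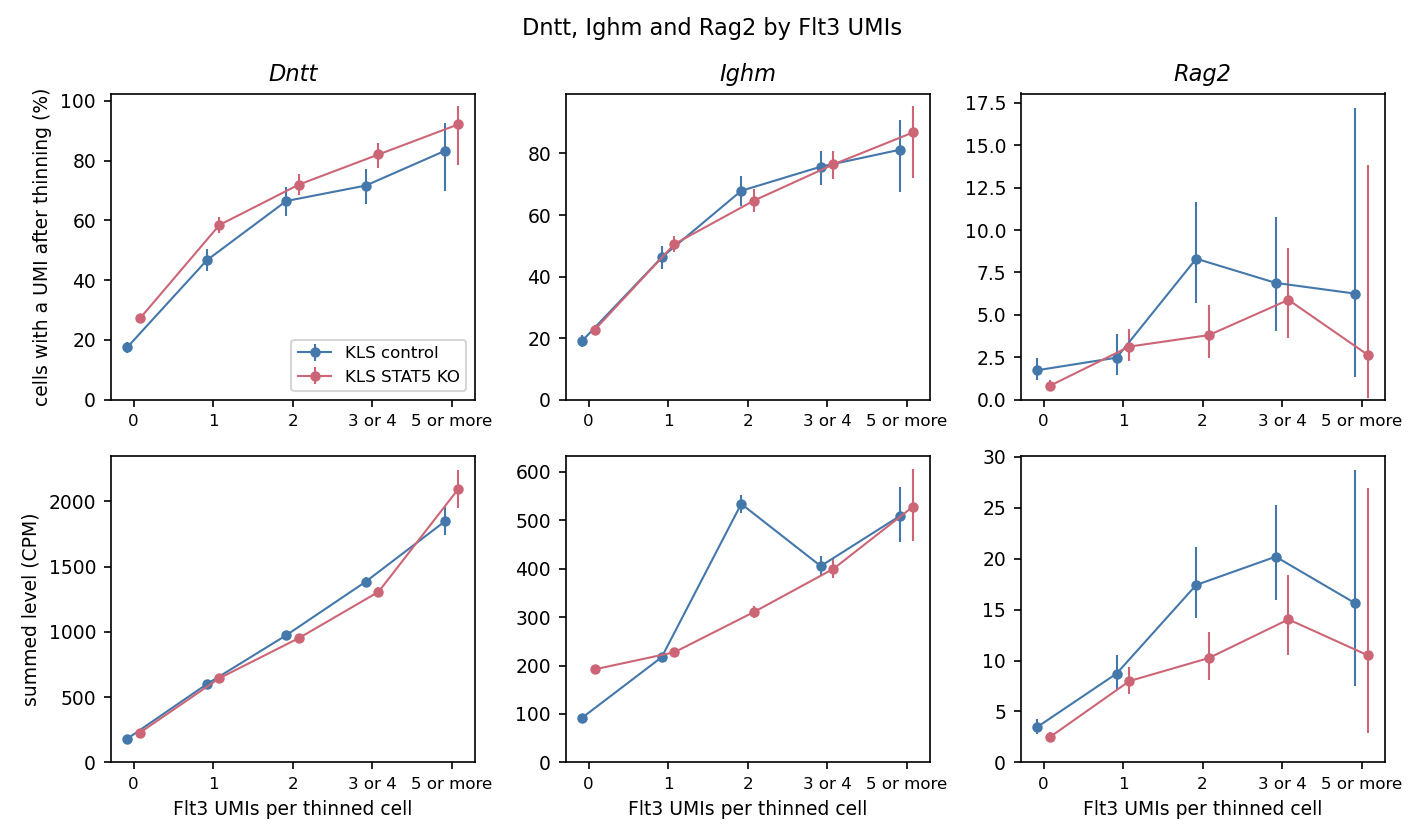
For Dntt, Ighm and Rag2, the upper plots give the share of thinned cells with a UMI (exact 95% binomial intervals) and the lower plots the summed level in CPM (exact 95% Poisson intervals), against the number of Flt3 UMIs per thinned cell in both libraries. The share of cells with Dntt goes from 17.5% to 83.3% in control and from 27.2% to 92.1% in KO, and the Rag2 level is the lower one in KO in every class, with intervals that overlap outside the class of 2 Flt3 UMIs.

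Rag2, the partner subunit of the recombinase, was lower in KO in every set of cells. Over all cells its level was 7.72 CPM in control (6.98 to 8.52) and 5.22 CPM in KO (4.72 to 5.76), from 395 UMIs in 248 cells and 399 UMIs in 314 cells. The ratio was 0.676 (0.587 to 0.779). In Flt3 cells it was 13.0 CPM (11.6 to 14.6) and 9.36 CPM (8.30 to 10.5), a ratio of 0.718 (0.608 to 0.848). In cells with no Flt3 UMI it was 3.47 CPM and 2.48 CPM, a ratio of 0.715 (0.539 to 0.95). The counting intervals of the libraries' levels do not overlap over all cells or in Flt3 cells. Rag2 was also lower in KO in each of the 5 classes of Flt3 UMIs, from 3.47 and 2.48 CPM at 0 to 15.6 and 10.5 CPM at 5 or more, but the intervals overlap in every class other than that of 2 Flt3 UMIs, and at 1 Flt3 UMI the share of thinned cells was the higher one in KO (2.48% and 3.13%). Each cell with Rag2 held only 1.59 UMIs in control and 1.27 in KO over the full counts, so its share of thinned cells depends on the draw. The share was 3.17% in control and 1.99% in KO in the first draw and 2.65% and 2.37% in another. The value expected over all draws was 2.88% and 2.14%, with the same order as the summed level. No Rag2 UMI was found in the full counts of the 71 control and 218 KO erythroid or megakaryocyte-marked cells, where 3 counts of the total, the limit used here for a count of 0, are shares of 4.23% and 1.38% of cells with a UMI.

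Rag1, which encodes the subunit that cuts DNA, was rare. It had 65 UMIs in 53 control cells and 55 UMIs in 51 KO cells, or 1.27 CPM (0.981 to 1.62) and 0.720 CPM (0.542 to 0.937), a ratio of 0.566 (0.388 to 0.824). In Flt3 cells the levels were 2.28 CPM from 52 UMIs and 1.12 CPM from 34 UMIs, a ratio of 0.493 (0.310 to 0.774). Outside the Flt3 cells there were 13 and 18 UMIs, and the ratio of 0.898 (0.416 to 1.99) cannot be told from 1 at this depth. After thinning, 9 control cells and 16 KO cells held Rag1, and 3 and 2 of them also held Rag2. In Flt3 cells, 2 of the 8 genes with at least 100 UMIs were lower past 1.2-fold in KO, Rag2 and Ighm, against 17% of all genes, and the call of Ighm ended without plasma-marked cells (ratio 0.966). None of the 8 passed 1.5-fold downward (4.72% of all genes) or 1.2-fold upward (13.2%), and 7 had a lower level by any amount (50.3%). Without that minimum Rag1 and Ebf1 join them.

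Ighm encodes the constant region of the IgM heavy chain, and counting at the 3′ end of transcripts does not separate unrearranged from rearranged loci. The gene lies at chr12:113418558-113422730 on the minus strand. Its summed level was 201 CPM in control (197 to 205) and 223 CPM in KO (220 to 227) over all cells, a ratio of 1.11 (1.08 to 1.14). In Flt3 cells it was 337 CPM and 274 CPM, a ratio of 0.814 (0.789 to 0.840), and in cells with no Flt3 UMI it was 92.2 CPM and 192 CPM, a ratio of 2.09 (1.996 to 2.18). These opposite values rest on a few cells that carry plasma cell genes. In KO, 3 cells with at least 10 Igkc UMIs held 4159 Ighm UMIs, 24.4% of the gene's total, with 10680 UMIs of the light chain gene Igkc, 1711 of Jchain and none of Flt3 or Dntt. In control, 1 cell held 1138 Ighm UMIs, 11.1% of the total, with 59 Igkc, 431 Jchain, 8 Flt3 and 16 Kit UMIs. Summed plasma cell markers (Jchain, Mzb1, Sdc1, Igkc and Tnfrsf17) stood at 23.0 CPM in control and 171 CPM in KO over all cells, and at 43.3 and 12.3 CPM in Flt3 cells.

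Without the 17 control and 17 KO cells that held at least 2 plasma cell genes, Ighm was close to equal in every set. It was 177 CPM in control and 169 CPM in KO over all cells, a ratio of 0.954 (0.928 to 0.980). In Flt3 cells it was 283 and 274 CPM, a ratio of 0.966 (-0.05 on the log2 scale), and in cells with no Flt3 UMI it was 91.5 and 96.6 CPM, a ratio of 1.06. The calls of Ighm past 1.2-fold therefore ended in both sets of cells. The share of thinned cells with Ighm, which a few rich cells hardly move, was 36.9% in control and 37.5% in KO, beside 2.82% and 5.05% in erythroid or megakaryocyte-marked cells.

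Ebf1 had the lowest ratio of the 10 genes and the fewest cells. Its level was 1.68 CPM in control (1.35 to 2.08) and 0.236 CPM in KO (0.140 to 0.372), from 86 UMIs in 23 cells and 18 UMIs in 11 cells, a ratio of 0.140 (0.0793 to 0.235). A single control cell held 53 of the 86 UMIs. That cell also held B lineage transcripts, with 31 UMIs of Cd79a, 32 of Vpreb1, 18 of Igll1, 16 of Vpreb3 and 5 of Pax5, and no UMI of Kit or Ptprc. The richest KO cell held 6 of the 18 UMIs, with 7 Lepr and 6 Cxcl12 UMIs and 1704 UMIs in all, and its Ebf1 stood beside stromal transcripts. Without the richest cell of each library 33 and 12 UMIs were left and the log2 ratio was -2.04, and without the plasma-marked cells 32 and 18 UMIs gave a ratio of 0.375. With the shared barcodes kept the log2 ratio was -1.56 in place of -2.83. Ebf1 was lower in KO under each of these settings, but its size is not fixed by these data. After thinning, 7 control cells and 3 KO cells held Ebf1, and all 10 also held Dntt.

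The other transcription factor genes had similar levels. Tcf3, which encodes the E proteins E12 and E47, stood at 131 CPM in control and 129 CPM in KO, a ratio of 0.989 (0.958 to 1.02). Ikzf1, which encodes Ikaros, stood at 195 and 188 CPM, a ratio of 0.965 (0.941 to 0.990). Satb1, which encodes a chromatin organiser, stood at 172 and 166 CPM, a ratio of 0.965 (0.939 to 0.992). None of the 3 came near 1.2-fold in either direction in Flt3 cells or in cells with no Flt3 UMI, where their ratios lay between 0.967 and 1.01. Ikzf1 and Tcf3 were not limited to lymphoid cells. Ikzf1 was found in 50.7% of control and 52.3% of KO erythroid or megakaryocyte-marked cells, and Tcf3 in 69.0% and 53.7%, while Satb1 was found in 5.63% and 7.34%.

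Notch1, the receptor whose signal directs T cell fate, did not pass 1.2-fold. It measured 65.4 CPM in control (63.2 to 67.6) and 58.5 CPM in KO (56.8 to 60.2), a ratio of 0.895 (0.855 to 0.936). In Flt3 cells it was 97.5 and 86.9 CPM, a ratio of 0.891 (0.842 to 0.943), and in cells with no Flt3 UMI it was 39.4 and 38.6 CPM, a ratio of 0.981 (0.909 to 1.06). The difference between the sets was not tested. Cd52, which encodes a small surface glycoprotein of lymphocytes, stood at 206 and 202 CPM over all cells, a ratio of 0.984 (0.960 to 1.01). In Flt3 cells it was 271 and 250 CPM, a ratio of 0.922, and in cells with no Flt3 UMI it was 152 and 170 CPM, a ratio of 1.11.

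Co-detection shows which of these transcripts lie in the same cells. After thinning, 1089 control cells and 2615 KO cells held Dntt. Ighm was found in 74.4% of them in control (71.7 to 77.0) and 66.3% in KO (64.4 to 68.1), against 16.1% and 15.6% of cells without Dntt. Cells with both genes were 2.02 times as frequent in control, and 1.77 times in KO, as the product of the single shares. Satb1 was found in 71.1% and 65.3% of cells with Dntt, against 31.1% and 28.3% of cells without. Notch1 was found in 41.4% and 34.0%, against 15.4% and 13.6%. Tcf3 showed no such relation, with 43.8% and 44.1% of cells with Dntt and 44.3% and 43.4% of cells without. Every share named here among cells with Dntt, other than that of Tcf3, was lower in KO.

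Cells with Dntt held more Dntt UMIs in control, so the shares were also compared at matched numbers of Dntt UMIs. Among cells with 1 Dntt UMI, Ighm was found in 51.9% of control (46.2 to 57.7) and 41.2% of KO (37.7 to 44.7). Among cells with 10 or more it was found in 93.0% (89.0 to 95.9) and 89.9% (86.6 to 92.6). The Ighm share was lower in KO in each of the 4 classes above 0, with intervals that overlap in every class but that of 1 UMI. Rag2 was found in 9.59% of control (6.03 to 14.3) and 5.20% of KO (3.51 to 7.38) cells with 5 to 9 Dntt UMIs. Among cells with 10 or more it was found in 18.6% (13.9 to 24.1) and 12.0% (9.09 to 15.5). The intervals overlap in both classes, and the matched classes were counted in 1 draw of the thinning only. Over all cells with Dntt, Rag2 was found in 7.99% of control (6.45 to 9.76) and 4.21% of KO (3.47 to 5.05). Another draw of the thinning gave 6.52% and 5.10%, so the size of this difference depends on the draw and its direction was the same in both. Nearly all cells with Rag2 held Dntt, 87 of 97 in control and 110 of 121 in KO.

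**Figure D4:**
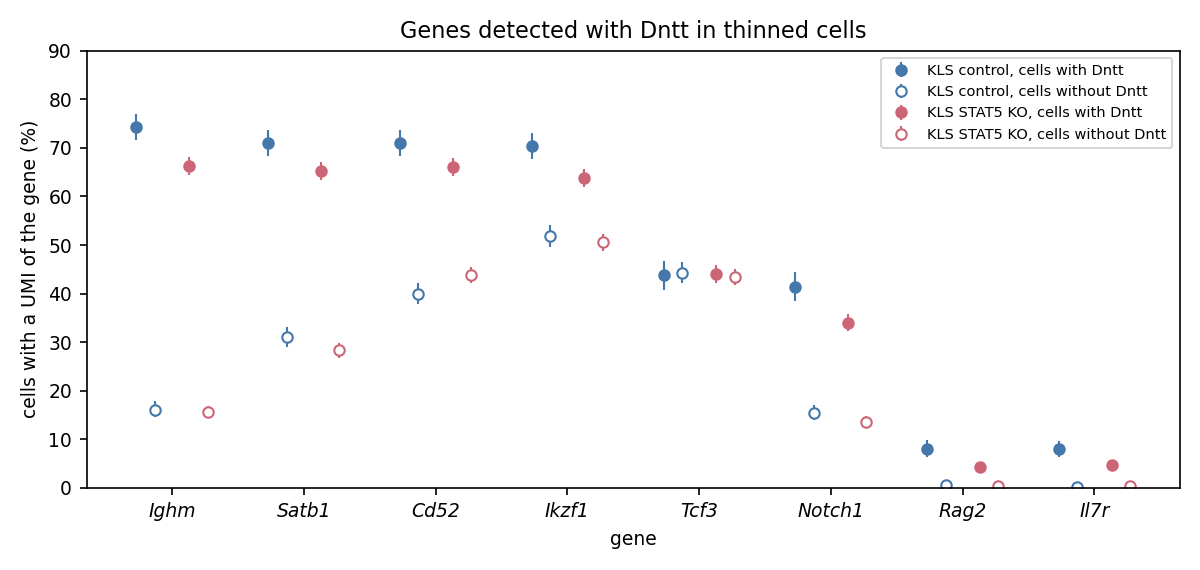
Points give the percentage of thinned cells with a UMI of each gene among cells with Dntt and among cells without Dntt, in the control and KO library, with exact 95% binomial intervals. Ighm is found in 74.4% and 66.3% of cells with Dntt and in 16.1% and 15.6% of cells without, while Tcf3 is at about the same share in all 4 groups.

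The number of these genes found in 1 cell was similar in both libraries except at the upper end. A thinned cell held a mean of 3.0 of the 10 genes in control and 3.03 in KO, and 7.19% and 6.46% of cells held none. Dntt, Ighm and Satb1 were found together in 19.9% of control and 20.8% of KO cells. Cells with at least 7 of the 10 genes were 3.6% of control (2.97 to 4.32) and 2.32% of KO (1.96 to 2.73). In Flt3 cells they were 6.94% and 4.43%, and in cells with no Flt3 UMI they were 0.836% and 0.842%. The cells that co-express the most of these genes were thus the smaller share in KO over all cells and in Flt3 cells. That order was absent in cells with no Flt3 UMI. These shares come from 1 draw of the thinning and were not recomputed with another.

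The genes most like Dntt across thinned cells were ranked by the lower of the Pearson correlations in the 2 libraries, over 9839 genes, as a description with no test. Cells of 1 library share its depth and free RNA. Ighm came first, with r of 0.67 over 3058 control cells and 0.61 over 6068 KO cells. Then came H2afy (0.49 and 0.47), which encodes a histone variant, Satb1 (0.46 and 0.45), Flt3 (0.47 and 0.44), Il12a (0.47 and 0.43), Arpp21 (0.43 and 0.41), Emb (0.36 and 0.33) and Notch1 (0.38 and 0.32). Tcf3 was near 0, with -0.01 and 0.00. Of the 8 genes, 3 are members of the 10 described here, and Flt3 was the gene used to divide the cells.

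Genes that follow in lymphoid development were taken from 4 lists, each counted over genes with at least 20 UMIs. Beside them, 21.2% of the 13976 genes with that many UMIs were lower past 1.2-fold in KO and 13.97% higher, with a median log2 ratio, on the scale of CPM plus 1, of -0.01. By any amount, 7328 of these 13976 genes had the lower level in KO. Of the 15 B lineage genes measured among 21, 14 had the lower level in KO and 10 were lower past 1.2-fold, with a median of -0.35. At a minimum of 100 UMIs 5 were lower past 1.2-fold, where 17.3% of all genes were. Without cells that carry at least 2 genes of mature B, plasma, T or NK cells (96 control and 110 KO cells) the count was also 5. The number of listed genes tested under these settings is not given here, so neither count is read as a share. Il7r, the receptor chain that signals through STAT5, stood at 13.1 CPM in control and 7.02 CPM in KO, a ratio of 0.536 (0.478 to 0.602), and its ratio was 0.561 without those cells. Its promoter window held 1 match to the STAT motif TTCNNNGAA, which 7.02% of all windows hold, and the Flt3 window held 0. Such a match says nothing of binding. Among cells with Dntt, Il7r was found in 7.90% of control and 4.63% of KO. Blnk, an adaptor of the B cell receptor, stood at 3.62 and 1.99 CPM, a ratio of 0.550 (0.441 to 0.685). Ly6d, a surface marker of B-primed lymphoid progenitors, stood at 2.70 and 0.301 CPM, with 87.0% and 95.7% of its UMIs in 10 cells. The 3 highest with at least 100 UMIs were Irf8 (ratio 0.937), Foxo1 (0.864) and Bach2 (0.855), all transcription factor genes.

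Genes of the T lineage and of Notch signalling did not move one way. Of 16 measured among 20, 5 were lower and 2 higher past 1.2-fold, with a median of -0.04. The lowest with at least 100 UMIs were Tcf7 (ratio 0.590), Cd247 (0.635) and Gata3 (0.781), and Tcf7 had 91.3% of its control UMIs in 10 cells. The highest with that many were Ptcra (1.34), Nrarp (1.26) and Hes1 (1.14). Nrarp and Hes1 are known targets of Notch, and the interval of the ratio excludes 1 for Nrarp (1.09 to 1.47) and includes it for Hes1 (0.938 to 1.40) and Ptcra (0.875 to 2.08).

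Of the 23 lymphoid priming genes measured among 24, 5 were lower and 1 higher past 1.2-fold, with a median of -0.03. Lsp1, an actin-binding protein of leukocytes, stood at 134 and 96.2 CPM, a ratio of 0.719 (0.696 to 0.743). The chemokine receptor genes Ccr7 and Ccr9, which guide lymphoid cells to lymph nodes and to the thymus and gut, had ratios of 0.640 and 0.681. Zeb2 (1.13) and Runx1 (1.08) were among the highest with at least 100 UMIs. The list holds Flt3 itself.

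The genes that join the DNA ends left by the recombinase had a median of 0.03, and of -0.01 where single-cell CPM were averaged. Of all 14, 1 was lower and 2 higher past 1.2-fold. Prkdc, the catalytic subunit of DNA-dependent protein kinase, stood at 16.0 and 22.4 CPM, a ratio of 1.40 (1.29 to 1.53), and Atm, a kinase of the response to DNA breaks, had a ratio of 1.21. Hmgb1, a cofactor of the recombinase, stood at 1711 and 2030 CPM, a ratio of 1.19. Xrcc4 (0.760), Xrcc6 (0.861) and Paxx (0.919) were the lowest.

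**Figure D5:**
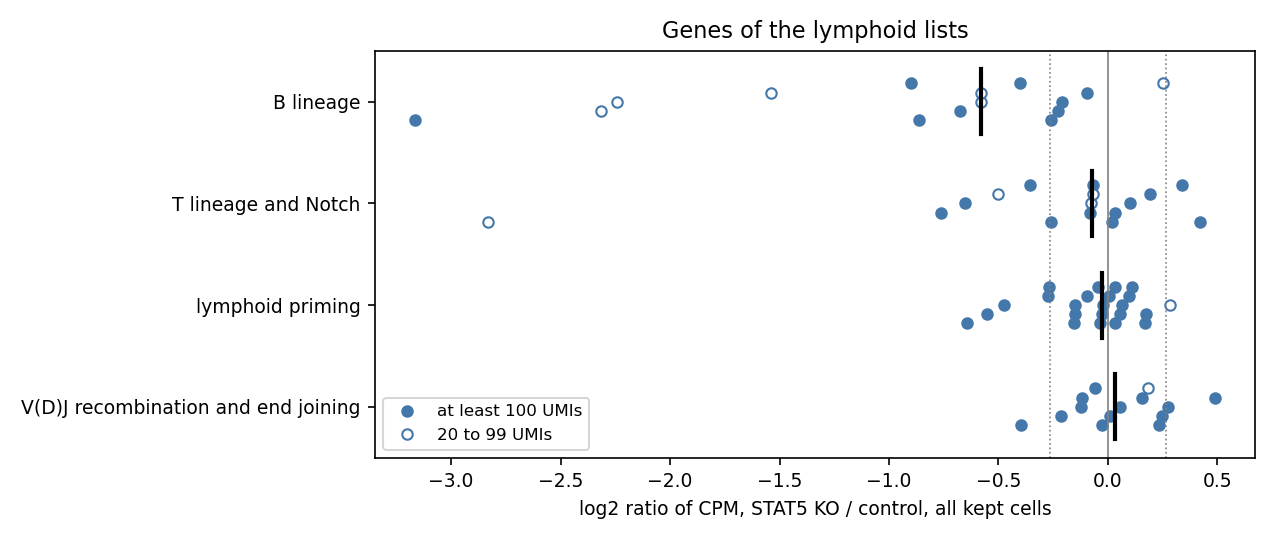
Each point is 1 gene of the 4 lists, placed by its log2 ratio of CPM in KO to control over all kept cells; filled points have at least 100 UMIs, open points 20 to 99, black bars mark the median of the plotted ratios without a pseudocount and dotted lines mark 1.2-fold. The B lineage genes lie mostly left of 0 with a median of -0.58, and the other lists have medians of -0.07, -0.03 and 0.03.

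Few cells of the KO library kept a Stat5a or Stat5b UMI, and lymphoid genes were rare in them. After thinning they numbered 264, and Dntt was found in 10.2% (6.85 to 14.5), Ighm in 7.20%, Flt3 in 9.09% and Rag2 in 0 of 264, where 3 counts of the total are 1.14%. In the 5804 KO cells with no Stat5 UMI, Dntt was found in 44.6% (43.3 to 45.9), Ighm in 38.8%, Flt3 in 42.8% and Rag2 in 2.08%. Among Flt3 cells the Dntt shares were 41.7% of 24 cells with a Stat5 UMI (22.1 to 63.4) and 66.0% of 2482 cells without (64.1 to 67.8). In control, a Stat5 UMI was found in 44.0% of thinned cells and in 40.6% of Flt3 cells. Why lymphoid genes were rare in the KO cells with a Stat5 UMI was not tested. Summed Stat5a and Stat5b levels were 113 CPM in control Flt3 cells and 2.98 CPM in KO Flt3 cells.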

How the data were processed

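Mouse KLS and MSC cells were profiled with 10x Chromium 3′ version 3 chemistry, per the labels' protocols. The deposited tables hold raw UMI counts per gene and barcode for 4 libraries; the authors used Cell Ranger with GRCm38 (mm10), per the submitters' processing notes, and software version 3.1.0, per the file headers. The strand rule and the cell calling are not given in the sources used here. Barcodes with fewer than 200 genes or more than 10% mitochondrial UMIs were left out. Scrublet (scanpy 1.11.5) scores were ranked and the highest were left out at 0.8% of barcodes per 1000 barcodes, 112 in KLS control and 451 in KLS STAT5 KO, because the automatic threshold marked 0 and 1. A barcode in several libraries was kept only where it held most UMIs. Free RNA was not corrected for.

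The counts of a library's cells were summed and divided by all their gene UMIs, as CPM. Single libraries allowed no test. Levels carry exact Poisson, ratios exact conditional binomial and shares exact Clopper-Pearson 95% intervals. Depth set their precision: 51139373 UMIs in kept control cells and 76389354 in kept KO cells. Shares used cells thinned to 4600 UMIs with 1 seeded draw. Flt3 cells were chosen after thinning and their full counts summed. Lists used at least 20 UMIs and a pseudocount of 1 CPM.

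Named genes were the 10 members, Flt3, Stat5a, Stat5b, the 3 highest and 3 lowest ratios of each list among genes with at least 100 UMIs, the 8 genes most like Dntt, and markers beside a result. A gene that met this rule is not reported here. The members and lists were chosen with earlier results of these data known. The comparison at matched Dntt UMIs was added after the data were seen. Alternatives covered cell filters, doublets, shared barcodes, scaling (edgeR 4.0.16 TMM and median of ratios), UMI minimums, the choice of Flt3 cells, thinning and cells with mature markers. The calculation of ratios and intervals was tested on simulated data. Python 3.11.15, numpy 2.4.6, scipy 1.17.1, pandas 2.3.3 and R 4.3.3 were used.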

Additional observations from a re-analysis of the deposited data

Results flagged for a closer look

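For Dntt, Ighm and Cd52, the log2 ratio of KO to control had opposite signs in Flt3 cells and in cells with no Flt3 UMI, with counting intervals that exclude 0 in both, and with 1 library per group the difference was not tested. For Dntt the ratio in cells with no Flt3 UMI exceeded that in Flt3 cells by 0.39 on the log2 scale, and for Cd52 by 0.27. The sign for Dntt in Flt3 cells depended on the setting and was positive where those cells were chosen in the full counts. For Ighm the difference was 1.36, and without the plasma-marked cells the log2 ratios were 0.08 in cells with no Flt3 UMI and -0.05 in Flt3 cells.

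Ebf1 and Rag1 in both MSC libraries, and Ighm in MSC control, had levels above those in KLS control. The MSC cells came from younger mice and another sort, and they enter no comparison of genotypes here. Ebf1 stood at 911 CPM in 56.7% of MSC control cells and at 705 CPM in 47.3% of MSC STAT5 KO cells. Ighm stood at 461 CPM in MSC control, where 1 of the 17 cells with a UMI held 722 of 808 UMIs, and at 55.0 CPM in MSC STAT5 KO, below KLS control. Rag1 stood at 5.71 CPM in MSC control, from 10 UMIs in 5 cells, and at 5.84 CPM in MSC STAT5 KO, from 7 UMIs in 2 cells.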

How the results depend on the processing

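Each value recomputed under other settings was compared with its main value. The limit was the counting interval, 1.5 times for counts and shares of genes, and a fixed log2 distance for medians of lists. Of these values, 532 stayed within the limit, 64 moved beyond it and 2 differences of shares whose interval had excluded 0 changed sign. Both are over all cells: for Cd52 the difference, KO minus control, was -5.15 points in full counts that were not thinned, and for Ikzf1 it was 0.0494 points with another draw (seed 2). The Dntt share over all cells was 5.15 points higher in KO without thinning, against 7.48 with it. Rag2 among cells with Dntt differed by -1.41 points with that draw, against -3.78. The count of B lineage genes lower past 1.2-fold was 10 of 15 over all cells. It was 5 without mature-marked cells and 5 at a minimum of 100 UMIs, where the numbers tested are not given. T lineage and Notch genes lower past 1.2-fold were 3 at that minimum, against 5 of 16. Lymphoid priming genes lower past 1.2-fold were 3 under a stricter cell filter, against 5 of 23. In the main setting these were 31.25% and 21.7% of the genes tested, beside 21.2% of all genes. The numbers tested at the changed settings are not given, so the counts of 3 are not read as shares. Of the 10 genes, with no UMI minimum, 3 were lower past 1.2-fold over all cells under every setting run, and 3 or 4 in Flt3 cells. At 100 UMIs the count in Flt3 cells was 2, and leaving out plasma-marked cells ends the call of Ighm and leaves Rag2. Log2 ratios within 1.2-fold also changed sign, among them: Dntt over all cells was 0.01 without mature-marked cells, against -0.05, and in Flt3 cells 0.09 where those were chosen in the full counts, against -0.06. Ighm over all cells was -0.07 without plasma-marked cells, against 0.15. The leave-out of plasma-marked cells and of the richest cell and the expected share were chosen after seeing the data. Other scalings moved the median of all genes by at most 0.01 log2. The share of all genes lower past 1.2-fold was 26.1% with at least 1 UMI in each library. No paired analysis was possible because each group has 1 library, and for the same reason no replicate could be left out. Rag1, with 65 and 55 UMIs, and Ebf1, with 86 and 18, are limited by depth.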
